A study of Mus musculus with 6 samples.

Results

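The genes described here are 10 components of the NF-kappaB pathway: the subunit genes Nfkb1, Nfkb2, Rela and Relb, and the feedback and target genes Nfkbia, Nfkbiz, Tnfaip3, Birc3, Traf1 and Icam1. They were found by symbol among the 37753 entries of the expression table that hold values, taking the entry with the highest mean for each symbol. All 10 had an entry, and all 10 passed the minimum mean level of 1 FPKM (fragments per kilobase of transcript, scaled to the mapped fragments of the library) that left 12461 entries for testing. The symbols were chosen by known role, with earlier results of these data known.

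NF-kappaB is a family of transcription factors that work as dimers. In resting cells the dimer of p50 (from Nfkb1) and p65 (from Rela) is held in the cytoplasm by IkappaB proteins, and the IKK kinases, switched on by tumor necrosis factor, interleukin-1 and Toll-like receptors, mark these inhibitors for destruction. A slower alternative branch processes p100 (from Nfkb2) to p52, which pairs with RelB. The dimers induce their own inhibitors, among them IkappaB-alpha and A20, so the levels of these transcripts are used as a readout of the pathway. In the mammary gland NF-kappaB is known for its part in lobuloalveolar growth and in involution.

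RNA-seq was made from primary mammary epithelial cells (MEC, genotype label WAPCre+, n = 3) and from tumor cell lines (MEKO, genotype label Mapk8KO Mapk9KO Cre+, n = 3), both on the strain C57/Bl6J. Each MEC library came from a separate preparation that pooled 3 to 5 virgin females aged 10 to 12 weeks, cultured on collagen I with serum, EGF and insulin. The MEKO lines 199, 233 and 336 are 1 library each and were grown from tumors of parous mice, passaged 2 times on collagen I and then moved to standard dishes. Wap-Cre, carried by both groups, is induced by lactation in luminal cells and in the MEKO mice removes Mapk8 and Mapk9, the genes of the JNK1 and JNK2 kinases. The labels give no age for the tumor mice, which the paper followed for tumors after breeding and weaning. Genotype, tumor origin, parity, age and culture change together between the groups and cannot be told apart. In bulk RNA, fewer cells of a type and less RNA per cell cannot be told apart either.

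Mapk8 was at 23.1, 25.1 and 19.2 FPKM in MEC 1, 2 and 3 and at 5.93, 3.12 and 1.37 FPKM in lines 199, 233 and 336. Mapk9 was at 24.4, 21.5 and 22.1 FPKM in MEC and at 7.62, 3.15 and 3.07 FPKM in the lines, so both targeted genes were lowest where the labels give the deletion. The epithelial genes Epcam and Cdh1 were among 8 epithelial markers with values in every library, with a summed level of 7020 to 11182 FPKM in MEC and 1366 to 3520 FPKM in MEKO. Line 199 stood apart from the other lines in its lineage genes. Its 8 basal markers summed to 2259 FPKM and its 10 fibroblast markers to 1471 FPKM, against 11.8 and 63.0 FPKM and 3.15 and 4.76 FPKM in lines 233 and 336. MEC held 1587 to 2804 FPKM of basal and 400 to 570 FPKM of fibroblast markers. Some markers did not follow the sums in line 199. There the basal genes Myh11, Oxtr and Mme were at 0.0812, 0.0125 and 0.161 FPKM, against MEC means of 32.3, 12.0 and 42.6 FPKM. The fibroblast genes Dcn and Lum were at 0.311 and 0.0264 FPKM, against 5.13 and 0.966 FPKM. The other markers of both lists were higher in line 199 than in lines 233 and 336. Leukocyte markers were low in MEC, and Tyrobp, a signaling adaptor of myeloid cells, was at 3.11, 3.31 and 3.85 FPKM there and listed at 0 in all 3 lines. The MEKO tumors of the study were adenocarcinomas, adenosquamous carcinomas or both, and the type behind each line was not established here, so the lines may differ in it.

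The start-site sequences show which members carry the letters that NF-kappaB dimers bind. In the RefSeq promoter set of GRCm38.p6, 7 of the 10 members had an entry, and Nfkb1, Relb and Nfkbiz did not. The 250 bases before each start site were searched on both strands for the kappaB consensus and for the AP1 site TGANTCA, the element bound by JUN, a substrate of JNK. A kappaB match was found for 3 members, Nfkb2, Nfkbia and Tnfaip3, and 3.90% of all 32851 promoters held one. The AP1 letters were found for Tnfaip3 and Nfkb2 and in 6.75% of all promoters. The windows of Rela, Birc3, Traf1 and Icam1 held neither. The stretches below are the bases nearest the start site, 5′ to 3′, without bases annotated as exon, and capitals mark kappaB and AP1 matches. Nfkbia (chr12:55492648-55492797, minus strand) and Tnfaip3 (chr10:19015411-19015547, minus strand, the first of 2 start sites) are shown as feedback genes with matches. Nfkb2 is shown as 30 bases around an overlapping pair of matches (chr19:46304688-46304717, plus strand), which lie in a first exon of a longer transcript. Traf1 (chr2:34961773-34961922, minus strand) and Icam1 (chr9:21015790-21015939, plus strand) are shown as the members with the lowest MEKO levels.
Nfkbia: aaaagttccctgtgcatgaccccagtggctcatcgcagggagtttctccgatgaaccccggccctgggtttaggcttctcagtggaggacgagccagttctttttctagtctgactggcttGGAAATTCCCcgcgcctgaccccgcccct
Tnfaip3: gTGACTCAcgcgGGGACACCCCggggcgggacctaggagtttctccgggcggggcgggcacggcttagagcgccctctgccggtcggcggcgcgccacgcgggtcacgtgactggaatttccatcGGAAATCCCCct
Nfkb2: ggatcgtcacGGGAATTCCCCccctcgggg
Traf1: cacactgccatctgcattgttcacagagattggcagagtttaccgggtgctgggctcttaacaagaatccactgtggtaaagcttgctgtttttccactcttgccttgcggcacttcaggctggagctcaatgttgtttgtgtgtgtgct
Icam1: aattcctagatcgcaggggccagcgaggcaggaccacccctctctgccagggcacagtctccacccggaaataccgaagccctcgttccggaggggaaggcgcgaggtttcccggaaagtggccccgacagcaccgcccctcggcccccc
A match is a description of letters, and a promoter without one may hold sites elsewhere.

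One of the 10 genes, Traf1, fell in MEKO, and none rose. The call used limma on log2(FPKM + 1), with a Benjamini-Hochberg adjusted p under 0.05 over all tested entries and a log2 fold change beyond 0.75. Among all tested entries 7.26% were called lower and 2.64% higher. The log2 fold changes of the members ranged from -2.44 to -0.0041, all 10 below 0, with a median of -0.53 beside 0.014 for all tested entries. In 3 members, Rela, Traf1 and Icam1, every MEKO library lay below every MEC library, a pattern held by 18.7% of tested entries. No member had every MEKO library above MEC, against 18.5% of tested entries. Without line 199, 5 members were called lower, namely Nfkb1, Nfkbia, Birc3, Traf1 and Icam1, against 11.2% of the entries tested in that fit. Without line 233 or line 336, only Traf1 was called. Without any 1 of the MEC libraries no member was called. In those fits the count over all tested entries also dropped, from 1234 to 259 without MEC 1, 301 without MEC 2 and 477 without MEC 3, while the log2 fold change of Traf1 kept its size at -1.70, -1.57 and -1.45. With all 6 libraries and sample weights, 4 members were called lower, Traf1, Nfkb1, Icam1 and Birc3. In that fit the count called lower over all 12461 tested entries also rose, from 905 to 1378.

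**Figure D1:**
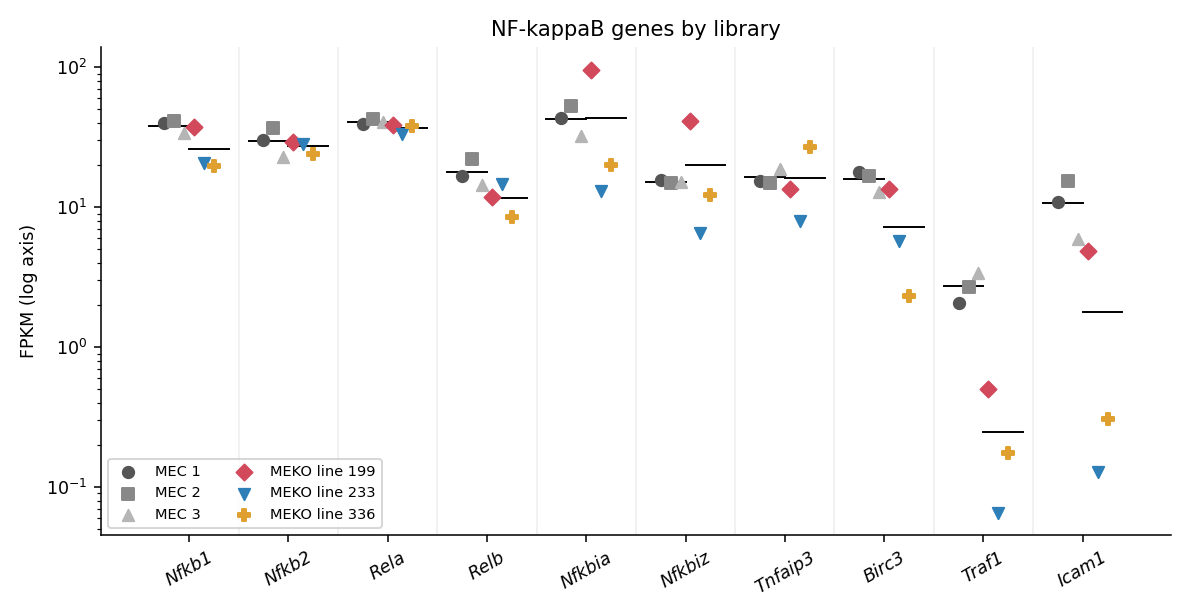
Level of each gene in FPKM (log axis) in the 3 MEC libraries (grey) and the 3 MEKO lines (coloured), with a bar at the mean of each group. Nfkb2 and Rela sit close together in all 6 libraries, Nfkbia and Nfkbiz split between line 199 and the other lines, and Traf1 and Icam1 lie below MEC in all 3 lines.

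The subunit genes varied least among the lines. Their highest line exceeded the lowest 1.16 times for Rela, 1.22 times for Nfkb2, 1.72 times for Relb and 1.91 times for Nfkb1, against 3.40 times or more for the other 6 genes. Rela (chr19:5637483-5648130, plus strand), which encodes the transactivating p65 subunit, was at 39.3, 42.6 and 40.5 FPKM in MEC and at 38.5, 33.2 and 38.3 FPKM in lines 199, 233 and 336. All 3 lines were below all 3 MEC libraries, by a small margin. The log2 fold change was -0.15 (SE 0.13, 95% interval -0.47 to 0.17, adjusted p = 0.487). Nfkb1 (chr3:135584655-135691547, minus strand), the source of p50, was at 39.9, 41.1 and 33.9 FPKM in MEC and at 37.3, 20.7 and 19.6 FPKM in the lines. Line 199 lay inside the MEC range, while lines 233 and 336 were at 54.0% and 51.1% of the MEC mean. Its log2 fold change of -0.61 (SE 0.27, 95% interval -1.25 to 0.036) did not pass the test (adjusted p = 0.199), and without line 199 it was -0.89 (adjusted p = 0.0155). Without line 233 or line 336 it was -0.48 or -0.44 and did not pass (adjusted p = 0.354 or 0.350 by limma).

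Nfkb2 and Relb encode the subunits of the alternative branch and are themselves NF-kappaB targets. Nfkb2 (chr19:46304320-46312385, plus strand) was at 30.1, 36.6 and 22.8 FPKM in MEC and at 29.4, 28.2 and 24.1 FPKM in the lines. All 3 lines were inside the MEC range, with a log2 fold change of -0.11 (SE 0.21, 95% interval -0.60 to 0.39, adjusted p = 0.765). Exons on the opposite strand overlap 11.6% of its exon length, and whether the quantification used strand is not given in the sources used here. Relb (chr7:19606217-19629438, minus strand) was at 16.8, 21.9 and 14.4 FPKM in MEC and at 11.8, 14.7 and 8.57 FPKM in the lines. Only line 233 reached the MEC range. The log2 fold change of -0.57 (SE 0.25, 95% interval -1.17 to 0.029) did not pass the test (adjusted p = 0.196).

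FPKM values are per length, so subunit levels can be set beside each other within a library. The 5 subunit transcripts, with Rel (c-Rel) added, summed to 128 ± 15.3 FPKM in MEC (SD, n = 3) and 103 ± 14.1 FPKM in MEKO (SD, n = 3). Of this sum Rela held 32.1 ± 3.28% in MEC and 35.9 ± 5.05% in MEKO, and Nfkb1 held 29.9 ± 1.31% and 24.5 ± 5.92%. The share of Nfkb2 was 23.0 ± 2.72% in MEC and 26.5 ± 1.95% in MEKO, that of Relb 13.7 ± 1.38% and 11.4 ± 3.06%. Rel, the subunit known mostly from lymphoid cells, was the smallest share in every library, 1.24 ± 0.256% and 1.77 ± 0.251%. The Nfkb1 share of 31.3% in line 199 was as in MEC, and lines 233 and 336 held 20.9% and 21.3%.

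The balance of the alternative branch (Nfkb2 and Relb) against the classical branch (Nfkb1 and Rela) did not separate the groups. The ratio of the summed FPKM was 0.590, 0.700 and 0.500 in MEC and 0.543, 0.797 and 0.565 in lines 199, 233 and 336. On the log2 scale this was -0.76 ± 0.24 in MEC and -0.68 ± 0.30 in MEKO (SD, n = 3 each), a difference of 0.081 (exact permutation test, two-sided, p = 0.7). No p under 0.1 can be reached with 3 against 3 libraries. Without line 199 the difference was 0.18 (exact permutation p = 0.5). Nfkb2 relative to Nfkb1 was 0.752, 0.892 and 0.672 in MEC, 0.787 in line 199, and 1.36 and 1.23 in lines 233 and 336 (exact permutation test, two-sided, p = 0.2). In this ratio, too, line 199 was inside the MEC range and the other lines were above it.

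Nfkbia and Nfkbiz, members of the IkappaB family, each divided the lines, with line 199 above MEC and the others below. Nfkbia (chr12:55489410-55492647, minus strand), the gene of IkappaB-alpha and the most direct feedback target of the pathway, was at 43.3, 53.1 and 32.3 FPKM in MEC. It was at 96.3 FPKM in line 199, 2.25 times the MEC mean, and at 13.0 and 19.9 FPKM in lines 233 and 336, which is 30.3% and 46.4% of that mean. All 3 lines lay outside the MEC range, 1 above it and the others below. The group means were 42.9 and 43.0 FPKM, with a log2 fold change of -0.50 (SE 0.70, 95% interval -2.19 to 1.20, adjusted p = 0.676). Without line 199 the log2 fold change was -1.33 and passed the test (adjusted p = 0.0304). Without line 233 or line 336 it was 0.067 or -0.22 and did not pass (adjusted p = 0.961 or 0.883 by limma). Relative to Rela, whose product it retains in the cytoplasm, Nfkbia was 1.10, 1.25 and 0.797 in MEC, 2.50 in line 199, and 0.390 and 0.520 in lines 233 and 336.

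Nfkbiz (chr16:55811375-55838899, minus strand) encodes IkappaB-zeta, a nuclear cofactor that helps NF-kappaB switch on secondary response genes. Its MEC values were 15.5, 15.0 and 15.1 FPKM, the tightest of the 10 genes, with a highest to lowest ratio of 1.04. The lines were at 41.4, 6.52 and 12.2 FPKM, the first 2.72 times the MEC mean and the others below the MEC range. The log2 fold change was -0.0041 (SE 0.59, 95% interval -1.44 to 1.43, adjusted p = 0.997), a mean of opposite values and not a measure of any one line. Without line 199 it was -0.70 and did not pass the test (adjusted p = 0.132).

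Tnfaip3 and Birc3 encode ubiquitin-modifying regulators that act just below the tumor necrosis factor receptor. Tnfaip3 (chr10:19000910-19015657, minus strand), the gene of the feedback inhibitor A20, was at 15.4, 15.0 and 18.6 FPKM in MEC and at 13.4, 7.92 and 26.9 FPKM in lines 199, 233 and 336. It was the only one of the 10 genes highest in line 336, where it lay above the MEC range, while lines 199 and 233 lay below it. The log2 fold change was -0.17 (SE 0.40, 95% interval -1.15 to 0.80, adjusted p = 0.81). Birc3 (chr9:7848699-7873186, minus strand), the gene of the ubiquitin ligase cIAP2, was at 17.9, 16.8 and 12.9 FPKM in MEC and at 13.5, 5.74 and 2.31 FPKM in the lines. Line 199 was in the MEC range at 85.1% of the MEC mean, and lines 233 and 336 were at 36.2% and 14.6%. The log2 fold change of -1.28 (SE 0.52, 95% interval -2.52 to -0.040) did not pass the test (adjusted p = 0.168), and without line 199 it was -1.82 (adjusted p = 0.022). Without line 233 or line 336 it was -1.27 or -0.76 and did not pass (adjusted p = 0.263 or 0.247 by limma).

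Birc2, the gene next to Birc3 and its closest paralog, was at 6.02, 5.97 and 7.77 FPKM in MEC and at 7.22, 7.79 and 5.97 FPKM in the lines. Its groups overlapped, with a log2 fold change of 0.077 (adjusted p = 0.814), and it is named after its values were seen. The 10 tested genes within 1 Mb of Birc3 had a median log2 difference from MEC of 0.28 in line 199, -1.68 in line 233 and -1.17 in line 336. Birc3 itself was at -0.21, -1.31 and -2.33, so line 199 was the highest in both, while the lowest line differed. The 9 tested genes within 1 Mb of Tnfaip3 had medians of 0.054, -0.87 and -0.57. Tnfaip3 itself was at -0.26, -0.95 and 0.69, with line 336 on the other side of 0 from its neighbours. For the other 8 members the median log2 fold change of the neighbours was between -0.16 and 0.29. The part of the chromosomal neighbourhood in the levels of Birc3 and Tnfaip3 was not tested.

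Traf1 (chr2:34941750-34961772, minus strand) encodes a TRAF adaptor that binds cIAP proteins at tumor necrosis factor family receptors and is itself induced by NF-kappaB. It was at 2.07, 2.68 and 3.39 FPKM in MEC and at 0.499, 0.0656 and 0.175 FPKM in lines 199, 233 and 336. The groups did not overlap, and the lines held 18.4%, 2.42% and 6.45% of the MEC mean of 2.71 ± 0.665 FPKM (SD, n = 3). Its log2 fold change was -1.57 on the log2(FPKM + 1) scale (SE 0.27, 95% interval -2.22 to -0.93, adjusted p = 0.0186), a scale that understates the change of a gene this low. With a pseudocount of 0.1 the log2 fold change was -3.20. By the exact permutation test (two-sided) p was 0.1, the smallest possible. Without MEC 1, 2 or 3 its log2 fold change was -1.70, -1.57 or -1.45, with an adjusted p of 0.0767, 0.0903 or 0.0702. The 18 tested genes within 1 Mb had a median log2 fold change of 0.27, and the called ones, Ggta1 and Gsn, were higher in MEKO.

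Traf1 is also a gene of activated lymphoid and myeloid cells, so leukocyte markers were set beside it. Of the 10 markers, 4 passed the level filter for testing. For 7 of the 10 all 3 lines were below MEC, beside 18.7% of all tested entries. Among these 7, Ptprc, Adgre1, Itgam and Coro1a were under the level filter, so that share does not cover genes as low as they are. Tyrobp, which passed the filter, was among the markers listed at 0 in every line. The sum of the 10 markers was between 11.4 and 18.9 FPKM in MEC, highest in MEC 3 as for Traf1. In lines 199, 233 and 336 it was 1.41, 3.20 and 25.1 FPKM, lowest in line 199, where Traf1 was the highest of the lines. In line 336 the sum was almost all Cd68, a lysosomal protein gene that other cells express too, at 23.5 FPKM. Ptprc, the pan-leukocyte CD45 gene, was between 0.190 and 0.399 FPKM in MEC and at most 0.0146 FPKM in the lines. The part of leukocyte RNA in the Traf1 difference was not tested.

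Among all tested entries, the 5 whose z scores over the 6 libraries were nearest to those of Traf1 were Gm4202, Shank2, Wnk2, Hiat1 (an entry joined with Slc35a3) and Dnah11. The Euclidean distances were between 0.108 and 0.199. Wnk2, a kinase gene, was the only one of these that was called, at 3.18, 3.52 and 5.36 FPKM in MEC and 0.584, 0.0880 and 0.315 FPKM in the lines. None of the other 9 members was among the nearest.

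Icam1 (chr9:21015985-21028817, plus strand) encodes the adhesion molecule that leukocyte integrins bind, and cytokines induce it through NF-kappaB in epithelium and endothelium. It was at 11.0, 15.4 and 5.97 FPKM in MEC and at 4.87, 0.129 and 0.306 FPKM in lines 199, 233 and 336. All 3 lines were below MEC, line 199 close to the lowest MEC library at 45.1% of the MEC mean, and lines 233 and 336 at 1.19% and 2.84%. The log2 fold change of -2.44 (SE 0.68, 95% interval -4.08 to -0.79) did not pass the test (adjusted p = 0.0742). Without line 199 it was -3.19 (adjusted p = 0.00645). The 8 endothelial markers summed to 23.9, 28.5 and 3.91 FPKM in MEC and 9.28, 4.41 and 9.59 FPKM in the lines, so among MEC libraries MEC 3 had the least of both Icam1 and these markers. Most of the sum in the lines was Egfl7, on an entry joined with other genes, and the other 7 markers summed to 20.9, 25.1 and 2.76 FPKM in MEC and 0.298, 0.164 and 2.14 FPKM in the lines. Of the 8 markers, 6 were below MEC in every line, a pattern held by 18.7% of all tested entries. Only 5 of the 8 passed the level filter for testing, and none was called. Among the lines, Icam1 was highest in line 199, and the sum of the 7 markers was highest in line 336. The part of these markers in the Icam1 values was not tested. An opposite-strand gene, Gm47079, overlaps 11.7% of its exon length.

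**Figure D2:**
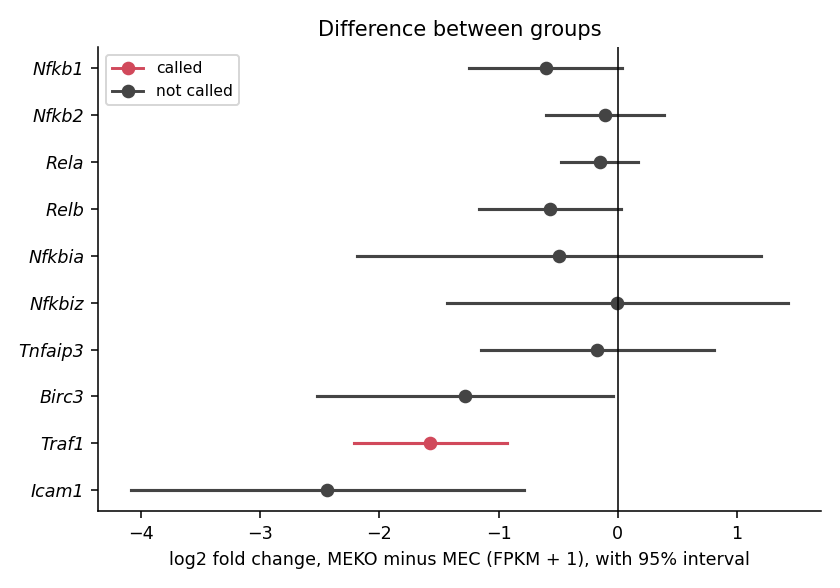
Log2 fold change of each gene, MEKO minus MEC on log2(FPKM + 1), as a point with its 95% interval from limma, with the called gene in red. Only the intervals of Birc3, Traf1 and Icam1 exclude 0 before adjustment, and the widest interval is that of Nfkbia, from -2.19 to 1.20.

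The lines differed among themselves more than the MEC preparations did. Each MEC library pooled 3 to 5 mice, and each line is a separate tumor cell line, so these spreads are not of like units. On log2(FPKM + 1) the range over MEKO was wider than over MEC for 8 of the 10 genes, and for 73.8% of all tested entries. The highest line exceeded the lowest 37.8 times for Icam1, 7.61 times for Traf1, 7.42 times for Nfkbia, 6.35 times for Nfkbiz and 5.83 times for Birc3. The ratios of Icam1 and Traf1 rest on low values in line 233, 0.129 and 0.0656 FPKM. Within MEC the widest such ratio was 2.58, for Icam1. Line 199 was the highest of the lines for 8 members and the lowest for none, and it was the highest line for 40.0% of all tested entries. Line 233 was lowest for 6 members and line 336 for 4.

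Each line was also set against MEC alone. A gene counted as displaced in a line when its log2(FPKM + 1) was outside the MEC range and 1 or more log2 units from the MEC mean, a description with no test since a line is 1 library. In line 199, 2 members were displaced upward, Nfkbia and Nfkbiz, and 1 downward, Traf1, beside 7.89% and 12.3% of all tested entries. In line 233 none was displaced upward and 5 were displaced downward, Nfkbia, Nfkbiz, Birc3, Traf1 and Icam1, beside 6.36% and 13.8%. Line 336 had 0 upward and 4 downward, Nfkbia, Birc3, Traf1 and Icam1, beside 6.79% and 14.4%. The median log2 difference of the members was -0.14, -1.03 and -0.94 in lines 199, 233 and 336. None of the 4 subunit genes was displaced in any line. Just past the limit was Nfkbia in line 336 at -1.04, and just short of it were Tnfaip3 in line 233 and Relb in line 336, both at -0.95. The basal and fibroblast sums given above set line 199 apart in the same way, and their part in these differences was not tested.

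**Figure D3:**
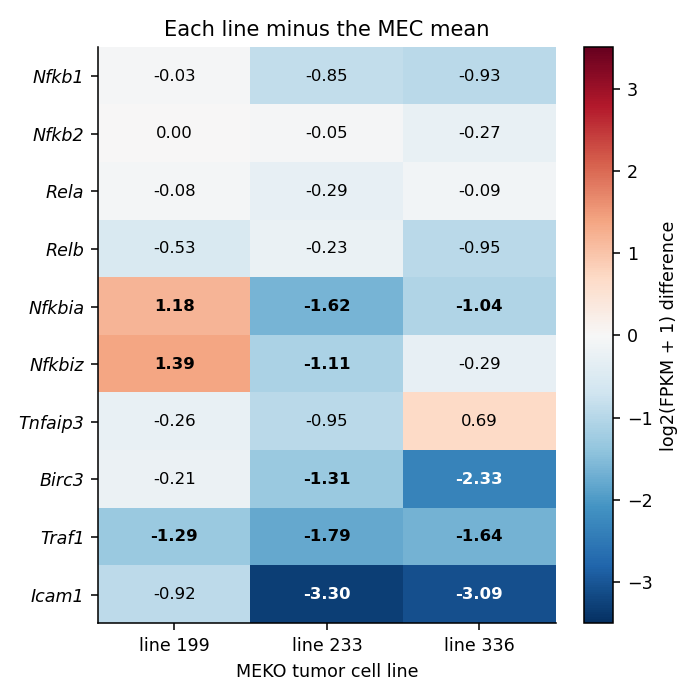
Difference of each MEKO line from the MEC mean in log2(FPKM + 1), blue for lower and red for higher, with displaced values in bold. Line 199 shows Nfkbia and Nfkbiz at 1.18 and 1.39, where line 233 shows -1.62 and -1.11, and Traf1 is below -1 in every line.

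By group mean, the order of the 10 levels was much the same in both groups at its ends. In MEC the highest means were those of Nfkbia, Rela, Nfkb1 and Nfkb2, from 42.9 down to 29.8 FPKM, and neighbours in this run had overlapping ranges. A gap without overlap followed, then Relb, Tnfaip3, Birc3, Nfkbiz and Icam1 from 17.7 to 10.8 FPKM, again with overlapping neighbours, and Traf1 stood apart at 2.71 FPKM. In MEKO the means of Nfkbia and Rela were the highest, at 43.0 and 36.7 FPKM. That of Nfkbia rested on line 199, at 96.3 FPKM. In lines 233 and 336 Nfkbia was at 13.0 and 19.9 FPKM, below Rela at 33.2 and 38.3 FPKM. Nfkb2, at 28.2 and 24.1 FPKM, was also above Nfkbia in these lines, as were Nfkb1 and Relb in line 233 and Tnfaip3 in line 336. The range of Rela was apart from that of Nfkb2, the next at 27.2 FPKM. Below it every neighbouring pair overlapped, down to Icam1 at 1.77 and Traf1 at 0.246 FPKM.

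The other genes of the pathway were taken from lists by role, 111 genes of which 94 were tested in 93 entries. Of these, 13 genes were called lower, 1 was called higher and 80 were not called, beside 7.26% lower and 2.64% higher among all tested entries. The median log2 fold change was -0.15. The calls were among ligands, receptors, targets and 1 adaptor. None of the 12 IKK complex and upstream kinase genes and none of the 10 negative regulators was called, and a difference between the lists was not tested. Without MEC 1, Tnfsf10 was the only one of the 13 called entries that kept its call, without MEC 2 it was Tnfsf10 and Cd40, and without MEC 3 there were 6. Without line 233 or line 336 there were 8, and without line 199 all 13.

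Among ligands, 6 of 14 genes were tested and 4 fell. Tnf, the cytokine that triggers the classical branch, was at 7.30, 7.06 and 2.71 FPKM in MEC and listed at 0 in all 3 lines. Tnfsf10, the gene of the death ligand TRAIL, was at 4.03, 4.16 and 4.04 FPKM in MEC and 0.0184, 0.121 and 0.0131 FPKM in the lines (log2 fold change -2.27, adjusted p = 0.00273). Tnfsf12 and Tnfsf13 share 1 joined entry, at 2.50 to 3.52 FPKM in MEC and 0.782 to 1.09 FPKM in the lines. Leukocytes are known sources of Tnf, of the receptors Cd40 and Tlr2 and of Mmp9 described next. Tyrobp was likewise at 0 in the lines, and 7 of the 10 leukocyte markers were below MEC in every line. Cd68 of that list was at 23.5 FPKM in line 336, above MEC. Among MEC libraries, Tyrobp and the leukocyte sum were highest in MEC 3, at 3.85 and 18.9 FPKM. Tnf and Mmp9 were lowest there, at 2.71 and 32.8 FPKM, while Cd40 and Tlr2 lay between the other MEC libraries. The part of leukocyte RNA in these differences between MEC and MEKO was not tested.

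Of 14 tested receptors, 4 fell and 1 rose. Cd40, which feeds the alternative branch, was at 3.95, 3.43 and 3.85 FPKM in MEC, 0.448 and 0.180 FPKM in lines 199 and 233 and listed at 0 in line 336. Tnfrsf11a, the gene of RANK, the receptor of alveolar growth in the mammary gland, was at 3.19, 4.08 and 3.33 FPKM in MEC and 0.451, 0.363 and 0.201 FPKM in the lines (log2 fold change -1.76, adjusted p = 0.0074). Il1rap, the shared chain of interleukin-1 receptors, and Tlr2 fell with log2 fold changes of -2.23 and -0.99. Tnfrsf21, the gene of death receptor 6, rose from 12.2 to 13.7 FPKM in MEC to 18.5 to 26.0 FPKM in the lines (log2 fold change 0.76, adjusted p = 0.0419).

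Adaptors and ubiquitin ligases gave 1 call in 18, Traf5, which was at 1.72 to 2.04 FPKM in MEC and 0.206 to 0.675 FPKM in the lines. The adaptor gene Traf6 and the kinase gene Irak2 came next by p without a call, with log2 fold changes of -0.54 and 0.62. Chuk, the gene of IKK-alpha, was at 19.2, 20.2 and 19.7 FPKM in MEC and 29.5, 28.7 and 30.2 FPKM in the lines. It lay higher in every line with an adjusted p of 0.0419 by limma, but its log2 fold change of 0.56 was under the limit for a call. Ikbkb (IKK-beta) and Map3k7 (TAK1), the next kinases by p, had log2 fold changes of -0.57 and 0.44 with adjusted p of 0.152 and 0.207.

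None of the 5 other tested subunit and IkappaB genes was called. Bcl3, the gene of an IkappaB protein that coactivates p50 and p52, was at 23.6, 17.9 and 15.3 FPKM in MEC and 11.5, 4.28 and 5.76 FPKM in the lines (adjusted p = 0.0594). Nfkbie, the gene of IkappaB-epsilon, was at 9.93, 11.9 and 9.52 FPKM in MEC and 6.73, 3.19 and 2.16 FPKM in the lines (adjusted p = 0.0638). Both were below MEC in every line without passing the test, and for both line 199 was the highest of the lines. Nkrf, a repressor gene, was above MEC in every line with a log2 fold change of 0.65 (adjusted p = 0.0871). Among the negative regulators the smallest p belonged to Tnip2, Pdlim2 and N4bp1, with log2 fold changes of -0.66, 1.09 and 0.22 and no call.

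Of 32 other target genes tested, 4 fell and none rose. Mmp9, the gelatinase gene, was at 73.1, 106 and 32.8 FPKM in MEC and 4.07, 0.00826 and 0.0609 FPKM in the lines (log2 fold change -5.20, adjusted p = 0.011). Ier3, an early response gene, was at 385, 406 and 255 FPKM in MEC and 93.8, 120 and 163 FPKM in the lines (log2 fold change -1.47, adjusted p = 0.0237). Cfb and Tapbp also fell, each on an entry joined with neighbouring genes, so that the share of Cfb or Tapbp itself is not known. By the rule for single lines, 8 of the 32 targets were displaced upward in line 199, 3 in line 233 and 5 in line 336, beside 7.89%, 6.36% and 6.79% of all tested entries. Downward the counts were 5, 16 and 12, beside 12.3%, 13.8% and 14.4%.

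Of the 32 tested targets, 12 had their highest level of the 6 libraries in line 199, 2 in line 233, 1 in line 336 and 17 in a MEC library. The share of all tested entries was not taken for this count. Among the lines alone, 21 targets were highest in line 199, 4 in line 233 and 7 in line 336. Beside these, the shares of all tested entries were 40.0%, 27.5% and 32.5%, and the difference was not tested. The following cytokine genes were picked for their levels in line 199 after values were seen, and Il1a is from the ligand list. Il1a, the gene of interleukin-1 alpha, was at 2.67, 1.65 and 1.54 FPKM in MEC and at 462, 18.8 and 3.24 FPKM in lines 199, 233 and 336. Cxcl1, a neutrophil chemokine gene, was at 36.4, 38.1 and 7.41 FPKM in MEC and 354, 46.3 and 80.9 FPKM in the lines. Ccl2, a monocyte chemokine gene, was at 2.50, 3.76 and 1.09 FPKM in MEC and 49.5, 0.214 and 0.873 FPKM in the lines. None of the 3 was called. Other cytokine genes of the target list differed, also named after their values were seen: Cxcl2 was highest in line 336, at 6.56 FPKM against 4.88 FPKM in line 199, and Cxcl10, Ccl5, Il6, Csf2, Lif and Cx3cl1 were highest in MEC.

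**Figure D4:**
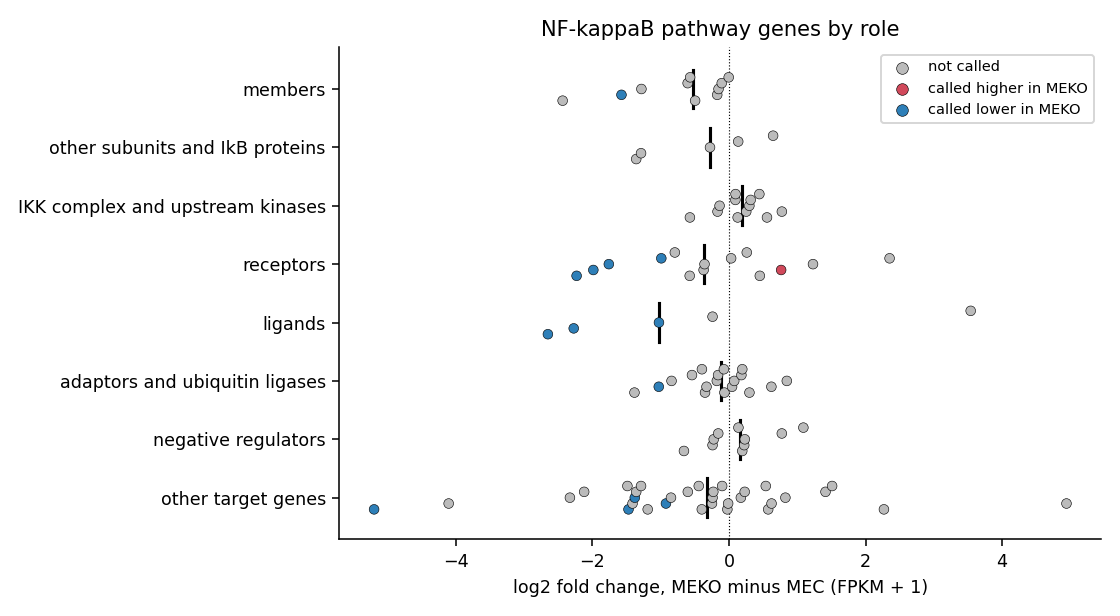
Log2 fold change (MEKO minus MEC, FPKM + 1) of the 10 genes (top row, members) and of the other tested pathway genes by role, 1 point per entry, with the list median as a bar and called entries in colour. Called entries are among ligands, receptors, adaptors and targets, and the lowest point is Mmp9 at -5.20.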

How the data were processed

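The authors trimmed paired reads with Trimmomatic, aligned them to mm10 (GRCm38) with Bowtie2 and TopHat2 2.0.14, and quantified genes with Cufflinks 2.2.1. The deposited values are FPKM, which the authors scaled to the length of each transcript and the size of each library. Depth is unknown from FPKM. Ratios of small values gave a relative depth of 0.927 to 1.29 of MEC 1, and a low gene such as Traf1 is measured least precisely.

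Here, 12461 entries with a mean of at least 1 FPKM were tested in R 4.3.3 with limma 3.58.1 (mean-variance trend) on log2(FPKM + 1), MEKO against MEC, with Benjamini-Hochberg adjustment. A call needs an adjusted p under 0.05 and a log2 fold change beyond 0.75. Single values were tested by exact permutation (two-sided). The fit was tested on simulated data. MEC libraries correlated at r = 0.944 to 0.966 over tested genes, MEKO lines at 0.856 to 0.903 and libraries of different groups at 0.793 to 0.855. Positions come from GENCODE vM21. The text names all members, Mapk8, Mapk9, each called gene of a role list (at least 3 per list, by smallest p), the 5 patterns nearest to the member of lowest p, and called neighbours within 1 Mb of a called member. Members and lists were chosen with earlier results of these data known. Alternatives were another pseudocount, filter, normalization or variance model and leaving out each library.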

Additional observations from a re-analysis of the deposited data

How the results depend on the processing

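The count of members called, 1 as reported, was 0 with a filter at a mean of 5 FPKM, which leaves Traf1 untested, and 4 with sample weights, and it ranged from 0 to 5 when single libraries were left out. The count over all tested entries, 1234 as reported, became 738 with that filter and 1978 with weights, and ranged from 259 to 1966 with a library left out. For the other pathway entries, 13 as reported, the values were 6, 22 and 1 to 22. The other alternatives kept these counts within 1.5 times. No call among members changed direction, but some uncalled log2 fold changes crossed 0. With a library left out Nfkb2 ranged from -0.28 to 0.051, Nfkbia from -1.33 to 0.067, Nfkbiz from -0.70 to 0.55 and Tnfaip3 from -0.60 to 0.22, and Nfkbiz was 0.030 under quantile normalization. The positive values came without MEC 2 for Nfkb2, without line 233 for Nfkbia and Tnfaip3, and without MEC 1, line 233 or line 336 for Nfkbiz. The difference (MEKO minus MEC) in the log2 ratio of alternative to classical subunits ranged from -0.094 to 0.20 with a library left out, and was below 0 without MEC 3 or line 233. The adjusted p of Traf1 ranged from 0.00938 to 0.0903 over its alternatives. Causes of these shifts were not tested, among them the smaller number of genes or libraries in some of the fits. No paired analysis was possible because the groups share no replicate numbers.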

Other observations

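The entries that hold the 3 subunits of the linear ubiquitin ligase, which attaches the chains that recruit the IKK complex, did not move together. They are named after their values were seen. Rnf31, the catalytic subunit gene, is on an entry joined with Irf9, so the share of Rnf31 itself is not known. That entry was at 22.1, 20.8 and 27.6 FPKM in MEC, at 25.3 FPKM in line 233, and at 3.69 and 5.57 FPKM in lines 199 and 336. Rbck1 was at 32.6 to 34.6 FPKM in MEC and at 37.4, 92.6 and 65.8 FPKM in lines 199, 233 and 336, above MEC in every line. Sharpin was at 18.6 to 20.5 FPKM in MEC and 14.9 to 16.8 FPKM in the lines. None of the 3 entries was called (adjusted p = 0.206, 0.148 and 0.181 by limma).

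Cxcl5, a neutrophil chemokine gene, was at 13.3, 13.8 and 1.95 FPKM in MEC and at 977, 34.5 and 522 FPKM in lines 199, 233 and 336, and it is named after its values were seen. All 3 lines lay above MEC, with a log2 fold change of 4.94 that did not pass the adjusted test (adjusted p = 0.0638 by limma). Zc3h12a, which encodes an RNase that degrades inflammatory transcripts and was chosen in the same way, was at 4.50 to 7.51 FPKM in MEC, at 31.5 FPKM in line 199, and at 5.06 and 8.58 FPKM in lines 233 and 336.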
